A study of Arabidopsis thaliana with 12 samples.

Results

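Xyloglucan endotransglucosylase/hydrolase (XTH) genes were examined for RNA level and for histone H3 lysine 4 (H3K4) methylation in rosette leaves of Arabidopsis thaliana. The 10 genes were XTH4, XTH7, XTH8, XTH9, XTH15, XTH16, XTH17, TCH4 (also XTH22), XTH23 and XTH24, taken by gene identifier from the 33557 genes of the authors' RNA table. They are 10 of the 33 XTH genes, all of which have an entry there. The plants were of the Columbia accession (Col-0) and 4 weeks old. They were wild type, an atx3/4/5 mutant (ATX3, ATX4 and ATX5 are putative H3K4 methyltransferases) or an sdg2 mutant (SDG2 likewise methylates H3K4). The mutant alleles are not given in the sources used here. RNA sequencing covered 2 libraries each of wild type and atx3/4/5, and chromatin immunoprecipitation sequencing (ChIP-seq) covered 1 library per genotype and mark: both H3K4me2 and H3K4me3 for the first pair of genotypes, and H3K4me3 alone for sdg2. The comparisons ask which genes and regions depend on these methyltransferases.

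Xyloglucan is the main hemicellulose of the primary cell wall of Arabidopsis and binds to cellulose microfibrils. XTH enzymes cut a xyloglucan chain and join the cut end to another chain, and some members hydrolyse it instead, so that the wall is loosened or reinforced while cells grow. Growth hormones, light, darkness and mechanical stimuli are known to change the RNA of individual members. In plants H3K4me3 sits mostly near the start of active genes, and H3K4me2 spreads further into the gene body.

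Levels of the targeted genes themselves were close or higher in the mutant. ATX3 had FPKM values (fragments normalised to gene length and library size) of 4.17 in wild type and 4.38 in atx3/4/5, ATX4 had 1.05 and 2.88, and ATX5 had 3.93 and 3.76. None of these differences had a q under 0.05 in the authors' deposited table, where the q-values were 0.941, 0.0541 and 0.945. Whole-gene FPKM checks the labels in neither direction, since disrupted genes can still be transcribed, so the genotypes are named as labelled. The 6 leaf markers, among them RBCS1A, had the highest values of the marker lists, from 502 to 16497 in wild type and from 372 to 9297 in atx3/4/5. The 5 root markers reached at most 6.67, with EXPA7 at 0 in both genotypes, and the 5 flower and shoot apex markers reached at most 9.10.

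In wild-type leaves the 10 genes spanned a range from an FPKM of 1.80 to 232. XTH4, known as an endoxyloglucan transferase of growing tissue, was the most abundant, above 96.3% of all tested genes. XTH7 followed at 182, XTH9, known from shoot apices and elongating stems, at 155, and XTH24, first described as the meristem gene MERI5, at 108. TCH4, the touch-induced XTH, stood at 36.3, XTH16 at 27.7 and XTH8 at 20.2. XTH15 and XTH17, both known to be induced by shade, stood at 3.66 and 2.99, and XTH23 at 1.80. In atx3/4/5 the order of the 4 most abundant was XTH4 at 148, XTH24 at 105, XTH9 at 98.1 and XTH7 at 82.6. TCH4 stood at 45.1, XTH16 at 24.4, XTH23 at 10.8, XTH8 at 10.2, XTH15 at 3.95 and XTH17 at 0.475. The authors combined the 2 libraries of a genotype into 1 value, so no spread can be given and neighbours in these orders cannot be told apart by a test. The 10 values summed to an FPKM of 770 in wild type and 529 in atx3/4/5, most of it from XTH4, XTH7, XTH9 and XTH24. Genes of the highest decile of mean FPKM, which holds these, stood lower as a class in atx3/4/5. The 10 genes made up 58.8% of the summed FPKM of the 33 XTH genes in wild type and 63.7% in atx3/4/5.

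**Figure D1:**
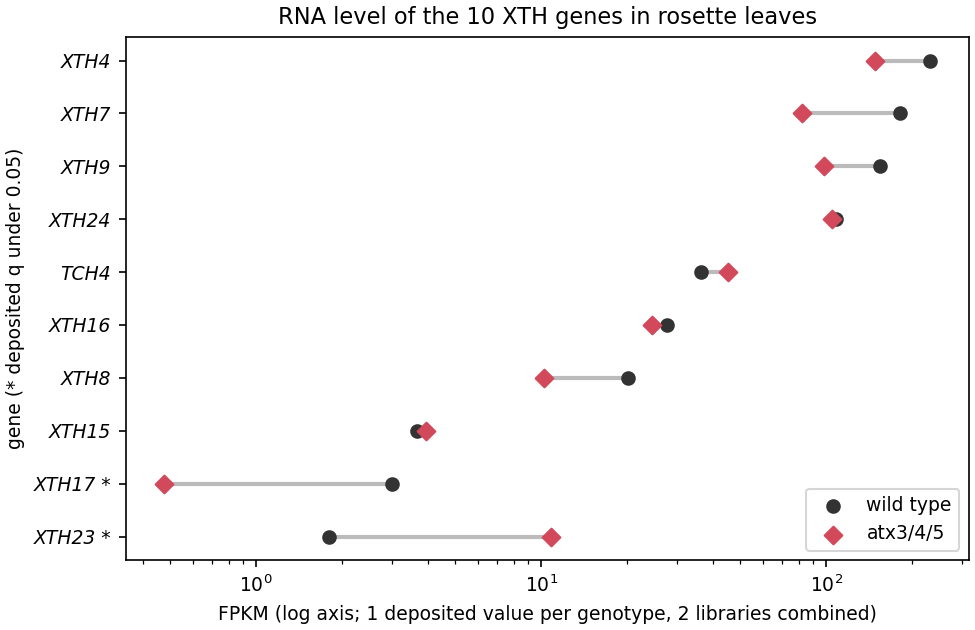
RNA level (FPKM, log axis) of each XTH gene in wild type (circles) and atx3/4/5 (diamonds), 1 deposited value per genotype; an asterisk marks a q under 0.05 in the authors' deposited table. XTH17 lies lower and XTH23 higher in the mutant, and the 4 most abundant genes of wild type all stand above an FPKM of 100 in that genotype.

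XTH23 rose and XTH17 fell in atx3/4/5, and the other 8 genes did not pass the test. All 10 were tested, so 2 of 10 were called at a q under 0.05 in the authors' deposited table, against 10.3% of all 19021 tested genes. By direction that is 1 higher, against 4.92% of the tested genes, and 1 lower, against 5.4%. With 10 genes this share lies near the background.

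XTH23 (AT4G25810; TAIR10 chromosome 4, counted from 1 as are all positions here, 13128643 to 13129884) had an FPKM of 1.80 in wild-type and of 10.8 in mutant leaves. That is a 6.01-fold rise, or a log2 ratio of 2.59, for which the authors' deposited table gives q = 0.00184. XTH17 (AT1G65310; chromosome 1, 24257216 to 24258473) stood at 2.99 and at 0.475, a 6.30-fold fall and a log2 ratio of -2.65, for which the authors' deposited table gives q = 0.0287. Its mutant value lies under an FPKM of 1, and on the scale of log2 of FPKM plus 1 the differences were -1.44 for XTH17 and 2.08 for XTH23. Both genes are among the least abundant of the 10 in wild type.

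Of the other 8 genes, 6 stood lower and 2 higher in atx3/4/5. XTH7 (AT4G37800; chromosome 4, 17775474 to 17777397) had a log2 ratio of -1.14 and XTH8 (AT1G11545; chromosome 1, 3878550 to 3880361) one of -0.98. Their p-values were 0.0140 and 0.0341 in the authors' deposited table, and their q-values there were 0.0918 and 0.157. XTH9 (AT4G03210; chromosome 4, 1415949 to 1417352) had a log2 ratio of -0.66 and XTH4 (AT2G06850; chromosome 2, 2763526 to 2765720) one of -0.65, and the authors' deposited table gives q = 0.385 and q = 0.396 for them. The remaining 4 genes differed by less than 1.5-fold. The log2 ratio was -0.18 for XTH16 (AT3G23730; chromosome 3, 8550110 to 8551335) and -0.04 for XTH24 (AT4G30270; chromosome 4, 14819192 to 14820592). It was 0.11 for XTH15 (AT4G14130; chromosome 4, 8137051 to 8138281) and 0.31 for TCH4 (AT5G57560; chromosome 5, 23307130 to 23308282).

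The median log2 ratio of the 10 genes was -0.42, beside -0.04 over all tested genes. Short genes as a class stood lower in atx3/4/5, and the 10 loci are short, from 1153 to 2195 bp. The median of the length decile that holds XTH9, XTH15, XTH16, XTH17, TCH4, XTH23 and XTH24 was -0.41, and that of the decile of XTH7 and XTH8 was -0.20. After subtraction of these medians the median of the 10 genes was -0.01, with 5 of them below 0, and XTH16 and XTH24 turned to 0.23 and 0.37. Marker sums moved between the genotypes too. The summed FPKM of 6 vascular markers was 346 in wild type and 132 in atx3/4/5, of which SUC2 made up 303 and 96.3. That of 6 epidermis and stomata markers was 744 and 588, of which CER6 made up 341 and 197 and PDF1 286 and 283. The leaf markers summed to 45323 and 18561 and the root markers to 8.00 and 1.84. The flower and shoot apex markers went the other way, from a sum of 6.41 to 12.4, of which STM, not called, made up 5.20 and 9.10. The part of these marker shifts in the XTH values was not tested, and fewer cells of a type cannot be told apart from less RNA per cell in whole leaves.

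The 5 genes with both marks in wild type, XTH4, XTH7, XTH8, XTH9 and XTH16, had neither mark in atx3/4/5. A gene is said to carry a mark when a peak of the authors' list overlaps its locus by at least 1 bp, to lose it when wild type has such a peak and the mutant has none, and to gain it in the opposite case. Over all nuclear genes with both marks in wild type, 469 of 14178 lost both, or 3.31%. Among those with a wild-type FPKM of at least 20, a level chosen after the values of these 5 genes were seen, the share was 1.74%. Each loss or gain rests on a single ChIP-seq library on either side, without replicates, so none was tested.

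**Figure D2:**
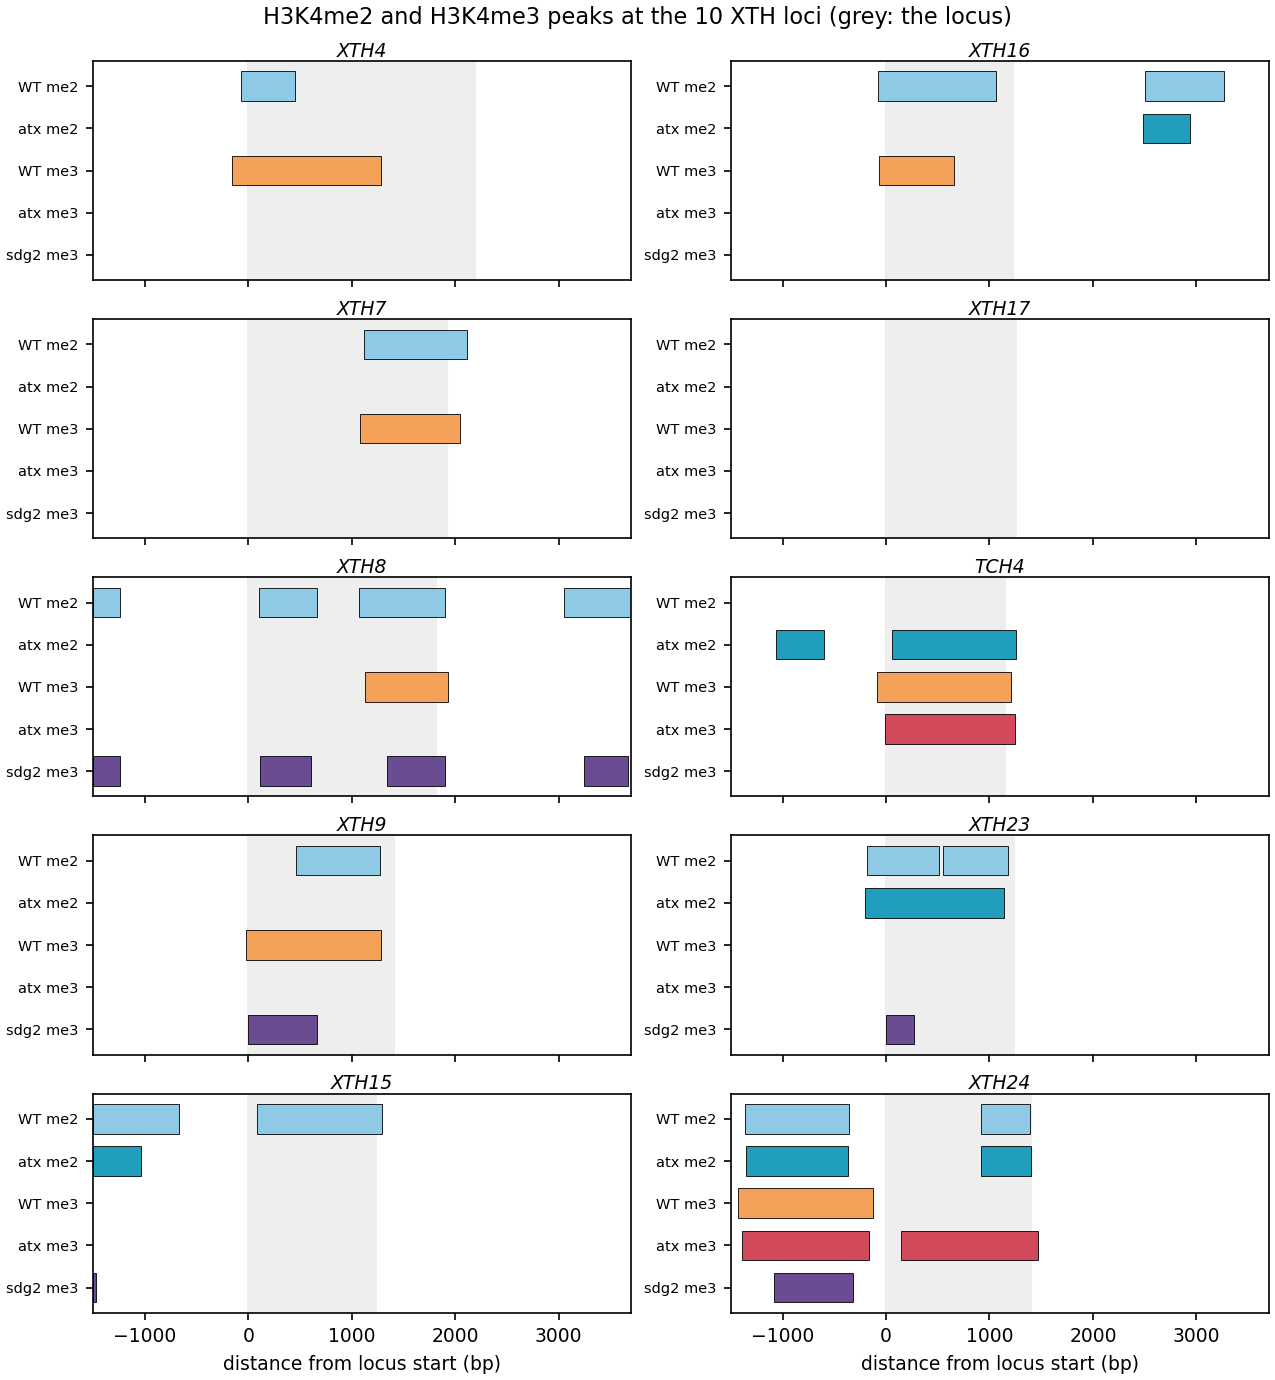
Peaks of the 5 lists on and within 1500 bp of each XTH locus, drawn by distance in bp from the lower-coordinate end of the locus (grey). The mutant rows of both marks are empty in atx3/4/5 on the loci of XTH4, XTH7, XTH8, XTH9 and XTH16, whereas TCH4, XTH23 and XTH24 carry peaks there.

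For H3K4me2, 8 of the 10 genes were marked in wild type and 6 of these 8 lost the mark in atx3/4/5, against 22.3% of all marked genes. With loss read from each wild-type peak it was 6 of 8, against 35.5% of all marked genes. With scores of at least 100 it was 5 of 6, against 33.9%. XTH8 had the highest score of the 6 genes that lost the mark, 537, from a peak of 837 bp at 3879615 to 3880451. It had a second peak with a score of 142. The score is the authors' own value for a peak, taken as minus 10 times the log10 of its p-value. XTH16 had a score of 243 and XTH7 one of 218, and XTH4, XTH15 and XTH9 had low scores of 106, 66.6 and 64.2. The peak of XTH15 covered 93.3% of its locus and that of XTH16 86.5%. Peaks beside these loci were present in both genotypes, at 673 bp from XTH15 in wild type and 1036 bp in atx3/4/5, and at 1280 and 1257 bp from XTH16. Wild-type peaks on either side of XTH8, at 1243 and 1236 bp with scores of 285 and 893, had no atx3/4/5 peak within 1500 bp of that locus.

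The mark was kept on XTH23 and XTH24. On XTH23 wild type had 2 peaks with scores of 76.1 and 110, and atx3/4/5 had 1 peak of 1347 bp with a score of 283 that covered 92.3% of the locus, about the stretch of both wild-type peaks together. On XTH24 the score was 168 in wild type and 68.8 in atx3/4/5, with peaks of 469 and 491 bp at nearly the same place, so it counted as lost where a score of at least 100 was asked for. TCH4 gained H3K4me2, in a peak of 1200 bp with a score of 257 over 94.9% of the locus. It was 1 of 2 genes unmarked in wild type, against a gain at 5.03% of all unmarked genes, and the other, XTH17, had no peak in either genotype.

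For H3K4me3, 6 of the 10 genes were marked in wild type and 5 of these 6 lost the mark in atx3/4/5, against 8.33% of all marked genes and 3.04% of those with a wild-type FPKM of at least 20. XTH4 had the highest wild-type score, 525, in a peak of 1439 bp that covered 58.3% of its locus, from 2763367 to 2764805. XTH8, XTH9, XTH16 and XTH7 had scores of 170, 123, 106 and 57.2, so the last lies close to the lowest score of the wild-type list, 50.03. The median score of that list was 769, and all 6 marked genes lay below it.

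TCH4 alone kept H3K4me3, with scores of 349 in wild type and 359 in atx3/4/5 and peaks that covered its whole locus in both. XTH24 gained it, in a peak of 1319 bp with a score of 314 over 89.4% of the locus. It was 1 of 4 genes unmarked in wild type, against a gain at 2.86% of all unmarked genes. A strong H3K4me3 peak lies beside XTH24, 125 bp from its locus in wild type, and it had scores of 2918 in wild type, 3100 in atx3/4/5 and 1709 in sdg2. That peak overlaps the neighbouring gene AT4G30260, whose FPKM was 58.1 in wild type and 35.5 in atx3/4/5.

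**Figure D3:**
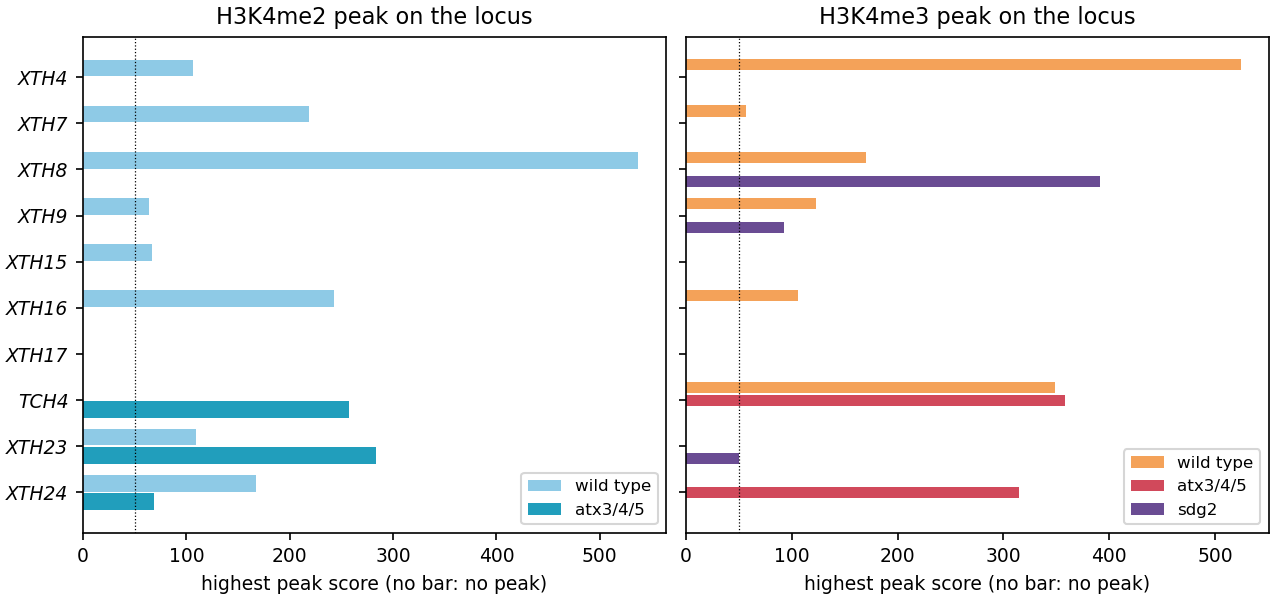
Highest score of a peak on each XTH locus in each list, H3K4me2 on the left and H3K4me3 on the right; no bar means no peak, and the dotted line marks the lowest deposited score, 50. The wild-type bars of XTH4, XTH7, XTH8, XTH9 and XTH16 have no atx3/4/5 partner.

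Weak peaks were lost more often than strong ones in the whole lists. The lost H3K4me3 peaks all scored below the median of the wild-type list, 769. For H3K4me2 that median was 197, with XTH4, XTH9 and XTH15 below it and XTH7, XTH8 and XTH16 above it. Among all other genes whose wild-type H3K4me3 score lay from 20% below to 25% above that of XTH7, 61.7% lost the mark in atx3/4/5. The like share was 54.6% for XTH16 and 38.7% for XTH8, and for XTH9 it was 275 of 550 genes. It was only 4.85% for XTH4, or 118 of 2435 genes. For H3K4me2 it ran from 57.8% at the score of XTH9 to 7.81% at that of XTH8, or 198 of 2534 genes. The losses at XTH4 for H3K4me3 and at XTH8 for H3K4me2 lie in the score ranges with the lowest shares, and at the scores of the other 9 losses 15.7% of genes or more lost the mark.

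In sdg2, 4 of the 6 genes marked by H3K4me3 in wild type lost the mark, against 9.38% of all marked genes. They were XTH4, XTH7, XTH16 and TCH4. XTH8 kept it, with scores of 170 in wild type and 391 in sdg2 and a further, weaker sdg2 peak elsewhere on the locus. XTH9 kept it with scores of 123 and 92.7, in a peak that narrowed from 1306 to 666 bp, and counted as having lost it where a score of at least 100 was asked for. The sdg2 list as a whole had narrower peaks, with a median of 675 bp against 1080 bp. XTH23 was listed with a peak of 275 bp and a score of 50.23, at the floor of the list, and was 1 of 4 genes unmarked in wild type, against a gain at 8.15% of all unmarked genes.

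The mutants were compared with the same wild-type library, so their losses are not independent. XTH4, XTH7 and XTH16 lost H3K4me3 in both, 3 of the 6 marked genes, against 2.0% of all marked genes. XTH8 and XTH9 had it in wild type and sdg2 and not in atx3/4/5. TCH4 had it in wild type and atx3/4/5 and not in sdg2. No RNA of sdg2 was among the samples.

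**Figure D4:**
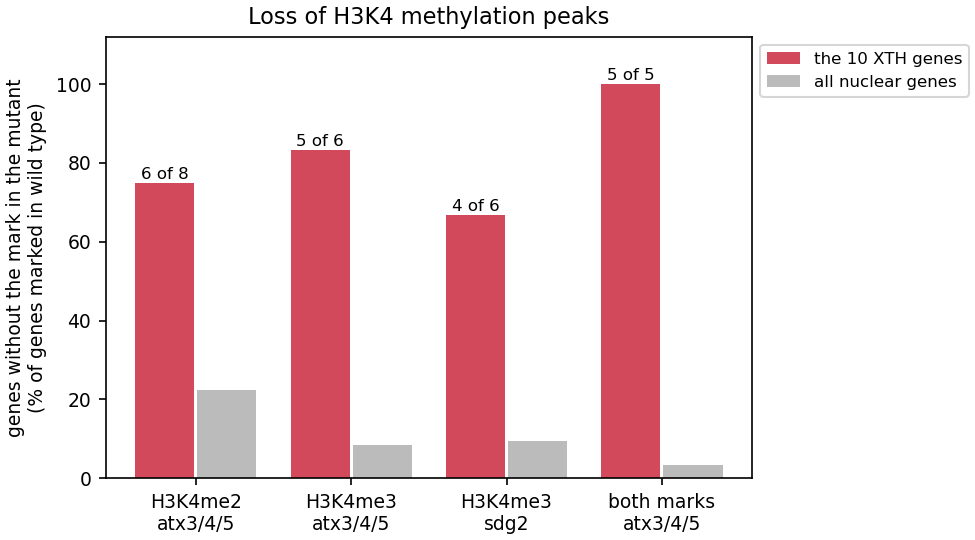
Share of genes marked in wild type that had no peak in the mutant (percent), for the 10 XTH genes (red, with counts) and for all nuclear genes (grey). The XTH shares rest on 5 to 8 genes each and come from 1 library per genotype and mark.

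Set beside the RNA, the 5 genes that lost both marks all stood at a lower level in atx3/4/5, with log2 ratios from -1.14 to -0.18 and a median of -0.66, although XTH16 turned to 0.23 when centred within length deciles and to 0.021 within FPKM deciles. Centred within FPKM deciles, XTH4 and XTH9 came close to 0, at -0.076 and -0.088, while XTH7 stood at -0.57 and XTH8 at -0.91. The authors' deposited table calls none of these 5. There 2 had an unadjusted p under 0.05, beside 25.6% of all tested genes in either direction. Together the 5 genes went from a summed FPKM of 617 to 364. Most of both sums came from XTH4, XTH7 and XTH9, whose FPKM decile stood lower as a class. Among all 386 tested genes that lost both marks, the median log2 ratio was -1.15, 86.5% of those with a ratio stood lower, and 26.2% were called lower in the authors' deposited table. Among the 10797 tested genes that kept both marks the median was 0.15. The 5 XTH genes lay on the same side as the median of that class and nearer to 0.

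The other 5 genes did not share 1 pattern. XTH23, which kept H3K4me2, had the 6.01-fold rise, and TCH4 and XTH24, which gained a mark each, had log2 ratios of 0.31 and -0.04. Among all tested genes that gained H3K4me3 in atx3/4/5 the median was 1.44, and among those that gained H3K4me2 it was -0.19. XTH15, which lost H3K4me2 alone, stood at 3.66 and 3.95. XTH17, with the 6.30-fold fall, had no H3K4 peak on its locus in any of the 5 lists.

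Each called gene had neighbours in level that are unrelated by name. By distance in log2 FPKM over the 2 genotypes, the tested genes nearest to XTH23 were LHT7, AT2G04495 and WRKY45, at distances of 0.03, 0.10 and 0.13. Those nearest to XTH17 were RPB5D, EGY3 and AT1G21150, at 0.04, 0.08 and 0.08. The authors' deposited table gives q = 0.0641, 0.531 and 0.0295 for these, so only AT1G21150 was called. For each gene nearest to XTH23 it gives q = 0.00184. With 2 values per gene this likeness in level is a description only.

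Among the 23 other XTH genes 13 were tested, and the authors' deposited table holds 1 call upward and 2 downward for them. The shares over all tested genes were 4.92% upward and 5.4% downward. XTH25 (AT5G57550), 708 bp from TCH4 in a tandem array, rose 8.71-fold from 0.721 to 6.28, with q = 0.0170 in the authors' deposited table. XTH31, which is known for hydrolase activity, fell 9.24-fold from 26.3 to 2.85, for which the authors' deposited table gives q = 0.00184. XTH5 fell 4.26-fold from 2.38 to 0.558, with q = 0.0389 in the authors' deposited table. The most abundant of the others, XTH6 and XTH27, went from 197 to 97.2 and from 185 to 108, and neither was called. XTH14, 412 bp from XTH23, had FPKM values of 0.0438 and 0.0537 and was not tested by the authors. XTH18, the tandem neighbour of XTH24 at 5215 bp, stood at 1.41 and 4.16, and the authors' deposited table gives q = 0.0911 for it. Whether reads are shared between such close copies was not examined, so these values are uncertain in that respect.

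Losses of H3K4me3 in atx3/4/5 were fewer among the other XTH genes, a difference that was not tested. In wild type 5 of the 23 carried H3K4me3, and 1 of these 5 lost it in atx3/4/5 and 3 in sdg2, against 8.33% and 9.38% of all marked genes. That 1 was XTH32, named after its values were seen, which lost both marks and had FPKM values of 74.4 and 28.4. XTH27, with a wild-type H3K4me3 score of 2381, kept the mark in both mutants, with an sdg2 score of 61.3. XTH6, with a score of 942, kept it in atx3/4/5 at 210 and had no peak in sdg2. H3K4me2 was carried by 7 of the 23 and lost by 5 of them in atx3/4/5, against 22.3% of all marked genes. XTH25 and XTH18 gained H3K4me2 there, with scores of 57.9 and 115, beside a gain at 5.03% of all unmarked genes. XTH31 had no peak in any list.

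**Figure D5:**
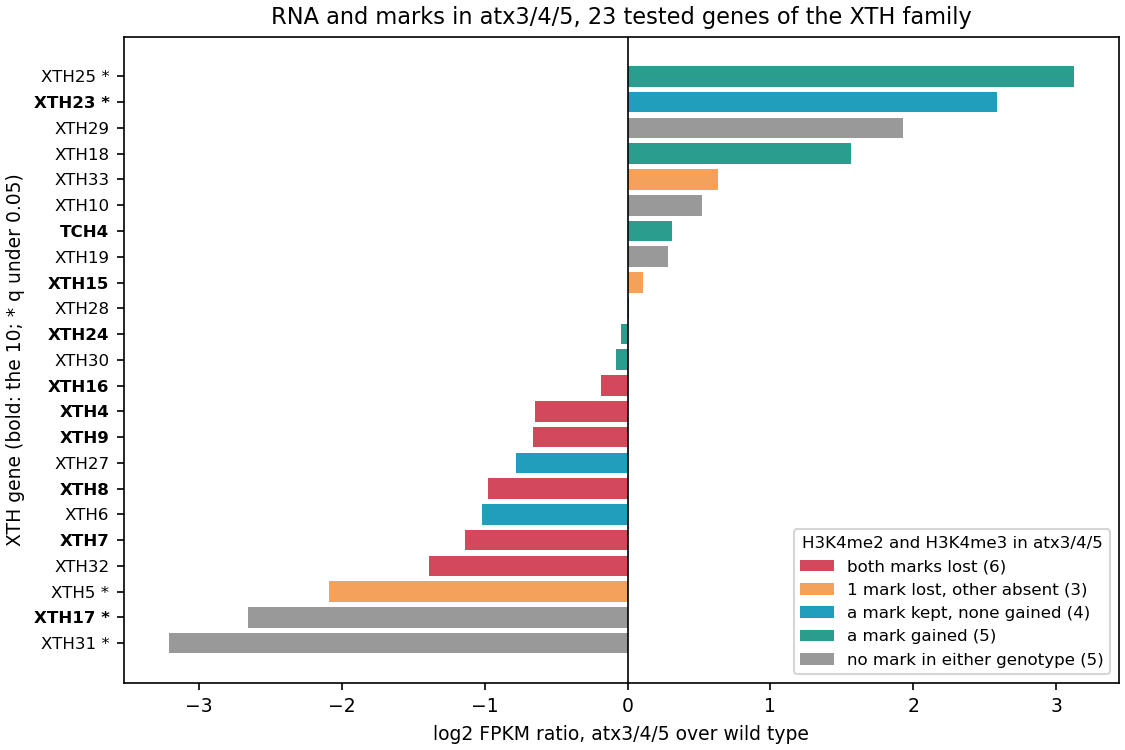
Log2 FPKM ratio, atx3/4/5 over wild type, of the 23 XTH genes that were tested, coloured by what became of H3K4me2 and H3K4me3 in atx3/4/5 (bold names mark the 10 genes, asterisks a q under 0.05 in the authors' deposited table). The 6 genes that lost both marks all lie below 0 (XTH16 above 0 when centred within length or FPKM deciles), and the 5 that gained a mark lie between -0.08 and 3.12; XTH30, counted among them, also lost H3K4me2.

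Xyloglucan synthesis and trimming genes were too few to set their calls apart from the share over all tested genes. Of 14 xyloglucan synthesis genes 13 were tested and 1 was called in the authors' deposited table, against 10.3% of all tested genes. This was the galactosyltransferase gene XLT2, lower at 41.6 and 14.5. XXT2, a xylosyltransferase gene, had the highest mean of both genotypes, at 46.6 and 32.0. H3K4me3 was carried by 13 of the 14 in wild type and lost by 1 in atx3/4/5 and 0 in sdg2, against 8.33% and 9.38% of all marked genes. Of 5 genes for xyloglucan trimming the authors' deposited table calls 0. There 1 had an unadjusted p under 0.05 and was higher, beside 25.6% of all tested genes in either direction. The trimming list includes AT5G20950, at 36.2 and 92.1, and the xylosidase gene XYL1, at 20.0 and 31.2. Its median log2 ratio was 0.68, and 0.53 when centred within length deciles.

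Expansins, which loosen the wall without cutting its polymers, were called lower in 5 of 15 tested cases and higher in none in the authors' deposited table. Their median log2 ratio was -1.12, and -0.78 when centred within length deciles. Over all tested genes 5.4% were called lower and 4.92% higher. The log2 ratios of the 5 were -2.51 for EXPA16, -2.32 for EXPA5, -2.06 for EXPA15, -1.95 for EXPB3 and -1.72 for EXPA3. EXPA6 and EXPA1, the most abundant by the mean of both genotypes, had log2 ratios of -1.12 and 0.64 and did not pass the test. Of 9 expansin genes with H3K4me3 in wild type 4 lost it in atx3/4/5 and 1 in sdg2, against 8.33% and 9.38% of all marked genes. EXPA5 was among them and lost both marks in atx3/4/5, from wild-type scores of 179 for H3K4me2 and 113 for H3K4me3. EXPA3, EXPA15, EXPA16 and EXPB3, the others called lower, kept H3K4me2 there. Of these EXPA3 lost H3K4me3, and EXPA15, EXPA16 and EXPB3 had no H3K4me3 peak in wild type.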

How the data were processed

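The 10 XTH genes and all gene lists were chosen with earlier results of these data known. The authors' deposited table gives 1 FPKM per gene and genotype, a status, and a p-value and q-value. The tools were Bowtie 1.0.1, MACS 1.4.2, TopHat2 2.0.10 and Cufflinks 2.2.1 with TAIR10, per the submitters' processing notes. For read depth, strand use and the treatment of shared reads, the sources used here give nothing. The 5 deposited peak lists hold a score per peak, each from 1 ChIP library. The labels do not tie the 2 RNA libraries of each genotype to separate plants, so the p-values measure a spread that may be technical.

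Ratios are log2 of the deposited FPKM values with no pseudocount, and no own test was run. Recomputing the Benjamini-Hochberg adjustment over tested genes returned the deposited q-values. Locus starts in the table count from 0 and were raised by 1: after that 39.0% equal the RefSeq TAIR10.1 starts, against 0.411% before. That RefSeq table gave names only, and no strand was used. Length deciles were formed over genes that reached 1 FPKM in each genotype. Overlap and adjustment steps were tested on simulated data (Python 3.11.15, numpy 2.4.6, pandas 2.3.3). Named beyond the 10, by a rule, were called genes, the 2 of each list with the highest mean FPKM over both genotypes, tandem neighbours and the 3 nearest genes by level; XTH32, EXPA7 and AT4G30260 were named after their values were seen. Protein and promoter comparisons, planned at first, were not made, since no sequences were used here.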

Additional observations from a re-analysis of the deposited data

How the results depend on the processing

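No paired analysis was possible because the authors combined the libraries of a genotype, and for the same reason no replicate could be left out. XTH23 remained the 1 gene called higher under every alternative. The count of XTH genes called lower went from 1 to 0 at a q under 0.01, to 3 at an unadjusted p under 0.05 (XTH7, XTH8 and XTH17), and to 0 among the 9 genes that reached 1 FPKM in each genotype, where XTH17 drops out. Over the other 6 lists, with 62 tested genes, calls went from 1 higher and 12 lower to 0 and 6 at a q under 0.01. They were 4 and 22 at an unadjusted p under 0.05, and 0 and 11 among the 56 genes that reached the FPKM floor. These alternatives were chosen after seeing the data. In the main setting 4.92% of all tested genes were called higher and 5.4% lower, and 25.6% had an unadjusted p under 0.05 in either direction. For the other settings no share by direction was made, so their counts have no background to be read against. Centred within length deciles XTH16 and XTH24 turned to 0.23 and 0.37, and within FPKM deciles XTH15, XTH16 and XTH24 turned to -0.18, 0.021 and 0.53; none of the 3 was called.

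With the same number of top-scoring peaks in both lists, H3K4me3 was lost in atx3/4/5 at 3 of 4 genes, against 5.93% of all marked genes. Both marks were then lost at 2 of 2, XTH4 and XTH8, and at 3 of 3 with scores of at least 100, against 2.19% and 4.81% of all genes. The H3K4me3 gain of XTH24 went from 1 gene to 0 with loci extended by 500 bp, since its neighbour's peak is then included. The sdg2 gain of XTH23 went to 0 with scores of at least 100 and with top-scoring peaks. With scores of at least 100, H3K4me2 was lost in atx3/4/5 at 5 of 6 genes, against 33.9% of all marked genes. XTH24 joins these losses, and XTH9 and XTH15 drop out. H3K4me3 was then lost in sdg2 at 4 of 5, against 13.9% of all marked genes, where XTH9 joins and XTH7 drops out. ChIP depth is unknown, so an absent peak may lie just under the calling threshold.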

Other observations

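Among 10 genes of brassinosteroid synthesis and signalling, a hormone pathway known to raise the RNA of TCH4 and other XTH genes, 2 were called lower and 0 higher in the authors' deposited table, where 3 were lower at an unadjusted p under 0.05. Over all tested genes 5.4% were called lower, and 25.6% had an unadjusted p under 0.05 in either direction. DWF4, which makes a rate-limiting step of synthesis, fell 3.68-fold from 6.96 to 1.89 FPKM (q = 0.0158 in the authors' deposited table) and lost both marks in atx3/4/5. BAS1, which inactivates the hormone, fell 3.12-fold from 6.08 to 1.95 (q = 0.0299 in the authors' deposited table) and had no peak in any list. The highest by the mean of both genotypes, CPD and BES1, stood at 195 and 113 in wild type and at 76.4 and 85.6 in atx3/4/5, and were not called. TCH4 itself stood at 36.3 and 45.1.

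Of 6 touch-induced genes other than TCH4, 2 were called lower in the authors' deposited table, against 5.4% of all tested genes. The calmodulin-like genes CML23 and CML24 fell 5.64-fold and 3.08-fold, with q-values of 0.00184 and 0.0170 there. CML23 had no H3K4me3 peak in wild type and one with a score of 65.6 in atx3/4/5, and CML24 kept H3K4me3, at 1644 and 1667. CML12 and STZ, the highest by the same mean, stood at 239 and 127 in wild type and at 293 and 59.2 in atx3/4/5, and neither was called. TCH4, CML12 and CML24 are known as touch genes together, and their log2 ratios were 0.31, 0.29 and -1.62.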
